A study of Citrus sinensis with 6 samples.

Results

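The genes described here are the nuclear genes of sweet orange (Citrus sinensis) whose annotated models are all non-coding: each has at least 1 transcript with an XR identifier, RefSeq's mark for a predicted non-coding transcript, and none with an XM or NM identifier or a bare gene record. They were chosen by these identifiers alone, with no measured value, outside the chloroplast genome. There were 3698 of them among 31688 genes listed. The nuclear genes with at least 1 XM or NM transcript, 24456 in number, served as the coding genes for comparison.

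RNA was sequenced from excised albedo, the white inner layer of the peel, taken on day 3 after inoculation. In 3 libraries the fruit had received the antagonist yeast Rhodotorula mucilaginosa with 0.2 mM salicylic acid (SA), a plant defence hormone, and in 3 libraries the yeast alone. Both groups therefore carry the yeast, and no cultivar, fruit number or untreated group is given in the labels used here. The series' title and design name defence gene expression with the SA-enhanced yeast as the question.

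Long non-coding RNAs are transcripts longer than a conventional length limit that are not translated, and many act by pairing with, or being transcribed across, a neighbouring gene. Small nucleolar RNAs (snoRNAs) guide chemical modification of ribosomal RNA and in plants often lie in clusters that are transcribed together. Small nuclear RNAs (snRNAs) are the RNA part of the splicing machinery.

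The set was broader than long non-coding RNA. In 1164 of the genes the longest annotated transcript was at most 200 bases. Of these, 900 were listed at 0 FPKM (fragments per kilobase of transcript, scaled to the fragments of the library) in all 6 libraries. A newer RefSeq gene table of sweet orange, used only for its gene types, listed 1765 genes (47.7%) under the same identifier. It typed 897 as lncRNA, 587 as snoRNA, 172 as protein coding, 53 as snRNA, 41 as pseudogenes, 9 as rRNA and 6 as other RNA. The set is therefore called non-coding-only genes below, after its rule, and the lncRNA-typed genes are given beside it where they differ. Genes without a type and longer than 200 bases numbered 1422 and held 45.8% of the set's summed FPKM, more than the 31.9% of the lncRNA-typed genes.

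**Figure D1:**
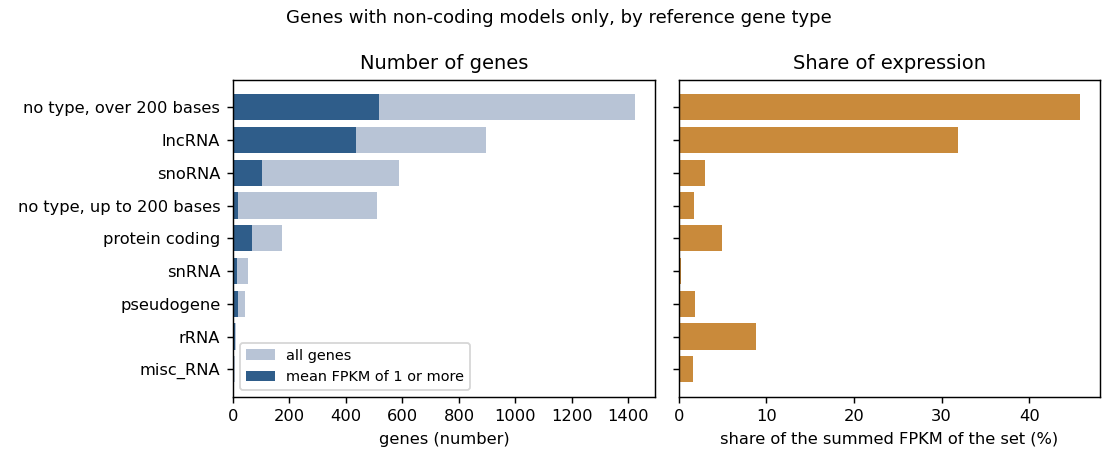
Left, number of non-coding-only genes by gene type in the newer gene table (pale) and number at a mean of 1 FPKM or more (dark), and right, each type's share of the set's summed FPKM in percent. Of 897 lncRNA-typed genes 434 reached that level, against 102 of 587 snoRNA-typed genes, and the 9 rRNA-typed models hold 8.78% of the FPKM.

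Depth, computed from the ratio of coverage to FPKM, lay between 4.11 and 5.24 gigabases per library, and the non-coding-only genes took 2.07% to 2.83% of the covered bases. The chloroplast genome took 0.0301% to 0.109%. No symbol-based albedo marker was available, so the tissue label was not checked by such a marker. The nuclear photosystem genes PSADB and PSAE lay at 0.632 to 2.98 FPKM and 2.67 to 7.38 FPKM. CHLASE1, a chlorophyllase gene, lay at 12.4 to 21.1 FPKM.

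Most non-coding-only genes were low or undetected, and a few were very high. At 0 FPKM in all 6 libraries were 1310 of them (35.4%), against 15.5% of coding genes, and 1176 (31.8%) had a mean of at least 1 FPKM, against 60.4%. The median of the mean FPKM was 0.152 for non-coding-only genes, 0.882 for lncRNA-typed genes and 3.09 for coding genes. Within each library the median log2(FPKM + 1) was lower for the non-coding-only genes than for the coding genes, by 1.82 to 1.98 (mean difference -1.86 ± 0.0584, SD, n = 6 libraries). This was so in 6 of 6 libraries, and the exact two-sided sign-flip permutation test gave p = 0.031, the smallest that 6 libraries allow. The difference was -1.12 for lncRNA-typed genes and -1.44 for genes longer than 200 bases. It was -1.55 among genes of either kind with a mean of at least 1 FPKM.

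**Figure D2:**
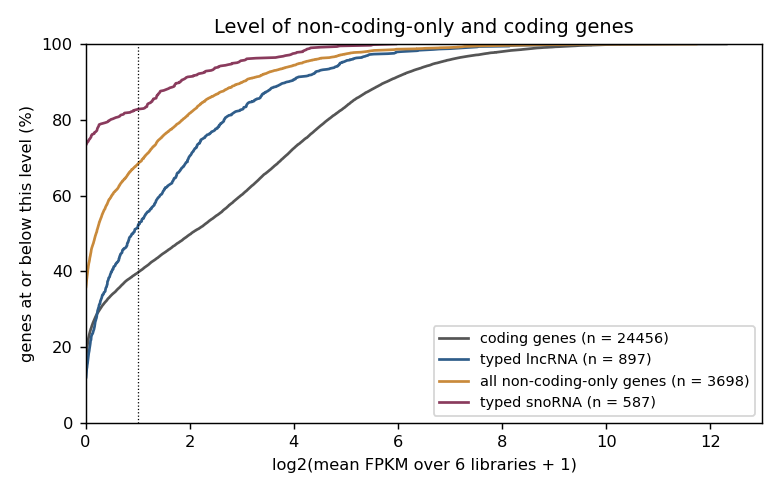
Cumulative share of genes at or below each level, for coding genes, all non-coding-only genes and those typed lncRNA or snoRNA. The dotted line marks a mean of 1 FPKM; 60.4% of coding genes and 31.8% of non-coding-only genes reach it.

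The summed signal was concentrated in few genes. The 10 highest non-coding-only genes held 39.7% of the set's FPKM and the highest pair 19.5%, while the 10 highest coding genes held 4.30% of theirs. The sets differ in size, at 3698 and 24456 genes, so 10 genes are a larger part of the non-coding-only genes. LOC112499210 was the highest, at 3729, 2885 and 3443 FPKM with SA and 3894, 2524 and 3846 FPKM with yeast alone. LOC112499211 followed at 1694, 1091 and 1319 FPKM with SA and 1875, 1112 and 1784 FPKM with yeast alone. In both genes the groups overlapped, and in both the second library of each group was the lowest of its group.

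These genes lie on opposite strands of NC_023046.1 and their models share 313 bases, from 7539529 to 7539841. Nearly all FPKM of LOC112499210 belonged to an assembled transcript of 5 exons and 864 bases that starts 1063 bases upstream of the annotated 376-base model. It spans the whole of LOC112499211. Whether the libraries keep strand is not given, so reads from the pair cannot be told apart. The coding gene LOC102625376 lies 204 bases from LOC112499210.

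Of the other members among the 10 highest, 2 are typed rRNA, LOC112499109 (mean 973 FPKM) and LOC112499108 (648 FPKM). A further 3 are typed lncRNA: LOC102616797 at 883 FPKM, LOC102623366 at 588 FPKM and LOC102606958 at 502 FPKM. LOC102609478, at 408 FPKM, is typed as other RNA. LOC102608167 (563 FPKM) and LOC107178032 (484 FPKM) have no type. LOC112499108 was the only one of the 10 whose groups did not overlap, against 10.2% of all genes tested. The highest lncRNA-typed gene, LOC102616797, is a 3-exon gene on NC_023051.1 (8013392 to 8014703, plus strand). The annotated model of the coding gene LOC102616504, on the minus strand, lies 58 bases past it, so these genes face each other with their ends. With its assembled transcript LOC102616504 reaches to 8014619, within LOC102616797. LOC102616797 had 936, 746 and 932 FPKM with SA and 1093, 679.6 and 913 FPKM with yeast alone. LOC102623366 had 800.05, 478 and 608 FPKM with SA and 554, 432 and 659 FPKM with yeast alone. In both, the lowest library of each group was again the second.

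Gene models of the set were shorter and simpler than coding models. The median gene had 2 exons against 4, and a longest transcript of 499.5 bases against 1594. Single-exon genes made up 29.9% against 16.3%. The lncRNA-typed genes included no single-exon model and had a median of 3 exons and 838 bases. A single annotated transcript was given for 86.0% of the set and 71.3% of coding genes.

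The share of genes with a mean of at least 1 FPKM was lowest among single-exon models and highest among those with most exons. It was 12.6% with 1 exon, 39.7% with 2, 35.1% with 3, 45.9% with 4 to 5 and 58.6% with 6 or more. By length it was 11.5% up to 200 bases, 28.5% from there to 500 bases and 46.3% from there to 1 kb, and then 44.2% and 47.6% in the longer classes. The most complex models were low or moderate in level. LOC102608699, with 16 exons and 20 annotated transcripts, had a mean of 1.78 FPKM (65.8% of it in annotated transcripts), and LOC107175077, also with 16 exons, had 0.959 FPKM. LOC102609848, with 14 exons and typed protein coding, had 12.9 FPKM in all, but its annotated models held 2.36 FPKM (18.3%). The rest was in assembled transcripts, some of them on the opposite strand. The longest transcripts, of 8413 bases in LOC102608860, 8025 in LOC107174777 and 7658 in LOC102622643, had means of 1.38, 0.199 and 0.559 FPKM. The first of these lies opposite the coding gene LOC102609439, which was lower still at 0.534 FPKM.

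Assembled transcripts carried a good part of the signal. Only 576 genes (15.6%) had an assembled transcript, and 30.4% of the set's FPKM lay in such transcripts. A large part of this was the assembled transcript of LOC112499210, with means of 3351 FPKM with SA and 3421 FPKM with yeast alone. The whole set summed to means of 25507 and 24474 FPKM. In 69 genes of the set (1.87%) the annotated model belonged to the same assembled locus as a coding gene.

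Most genes of the set did not lie near a coding gene. Measured to annotated coding models, more than 2 kb away were 2036, within 2 kb but not overlapping were 1008, 277 overlapped a coding gene on the opposite strand and 210 on the same strand. The genes within 2 kb held 51.1% of the set's FPKM and reached a mean of at least 1 FPKM in 40.5%, against 27.6% of those further away. That share of FPKM rests much on a few genes. LOC112499210 and LOC112499211, with means of 3387 and 1479 FPKM, are among the genes within 2 kb, which summed to 12773 FPKM. Overlap was taken between whole gene spans, introns included, so whether exons are shared was not checked. In LOC102630263, for example, the only model that spans the coding partner was listed at 0 in all 6 libraries. Of the 277 genes overlapping on the opposite strand 84 had a mean of at least 1 FPKM, and in 60 pairs both genes did. The coding partner was the higher in 48 of the 60 pairs and the non-coding-only gene in 12, with medians of 10.4 and 2.60 FPKM. Without strand, the reads in the shared stretch of such a pair cannot be assigned.

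The snoRNA-typed genes were detected mainly where they lie close together. With clusters defined as neighbours on a strand at most 500 bases apart, 93 of 587 lay in 33 clusters of up to 5 genes. A mean of at least 1 FPKM was reached by 70 of the 93 (75.3%) and by 32 of the 494 single ones (6.48%). The highest, LOC112498013, lies in a cluster of 3 on NC_023049.1 and had 67.4, 64.6 and 53.0 FPKM with SA and 54.6, 63.0 and 64.7 FPKM with yeast alone. Its libraries differed little and the groups overlapped. The 102-base model held 22.1% of this level and an assembled part the rest. Of the 1176 genes tested, 102 were snoRNA-typed, and at an unadjusted p under 0.05 they gave 6 higher and 2 lower with SA. That is 7.84%, against 5.23% of all genes (3.05% higher and 2.18% lower). The snRNA-typed genes were lower, with the highest, LOC112495715, at 9.98, 11.1 and 12.4 FPKM with SA and 10.7, 10.2 and 12.3 FPKM with yeast alone. Reads of near-identical snoRNA, snRNA or rRNA copies may be split between models, so levels of single copies are uncertain.

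The rRNA-typed models held 8.78% of the set's FPKM. Their sum was 2399, 2249 and 2703 FPKM with SA and 2639, 1551 and 1629 FPKM with yeast alone, so the groups overlapped through the first yeast library. LOC112499108, with a model of 1809 bases, had 777, 745 and 924 FPKM with SA and 416, 513 and 516 FPKM with yeast alone. The model itself held 42.9% of this, with 343, 377 and 471 FPKM with SA and 2.45, 250.3 and 227 FPKM with yeast alone. The rest was in MSTRG.14750.1, a 2-exon assembled transcript from 25302629 to 25322654 on NC_023052.1, with 435, 368 and 452 FPKM with SA and 413, 263 and 289 FPKM with yeast alone, where the groups overlapped. LOC112495960, of the same length, had 266, 291 and 331 FPKM with SA and 261, 181 and 169 FPKM with yeast alone. In the totals of both genes every SA library was above every yeast library, as in 5.68% of all genes tested. For LOC112495960 the margin was small, with the lowest SA library at 266 FPKM and the highest yeast library at 261 FPKM. LOC107175016, another model of 1809 bases, without a type, had 401, 278 and 501.3 FPKM with SA and 389.7, 275 and 257 FPKM with yeast alone, and its groups overlapped. Its model held 31.0% of that. LOC112499109, the highest, had 995, 864 and 1080.4 FPKM with SA and 1539.6, 643 and 719 FPKM with yeast alone. Here the first yeast library was the highest of all 6 and the other yeast libraries the lowest. The 3 rRNA models of 119 bases were listed at 0 throughout.

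Within a group the non-coding-only genes varied more between libraries than coding genes of like level. The median SD of log2(FPKM + 1) was 0.302 against 0.255 at a mean of 1 to 2 FPKM, and 0.277 against 0.178 at 50 FPKM and over. Between these levels it was 0.264 to 0.305 for the set and 0.188 to 0.245 for coding genes. For lncRNA-typed genes the median SD was above that of coding genes in every class, but by little in some. It was 0.234 against 0.218 at 5 to 10 FPKM and 0.224 against 0.188 at 10 to 50 FPKM. In the other classes it was 0.279 to 0.296. Genes of the set with no transcript over 200 bases had 0.285 to 0.450 below 50 FPKM, and 0.258 at 50 FPKM and over (4 genes). These medians are a description of level classes, with no test, because genes are not replicates. The classes match level but not transcript length, and how far length accounts for the difference was not tested. The correlation of log2(FPKM + 1) across the tested genes was 0.936 to 0.953 between libraries of a group and 0.933 to 0.960 between groups. For coding genes it was 0.972 to 0.981 and 0.969 to 0.985, so libraries of different groups were about as alike as those of 1 group.

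**Figure D3:**
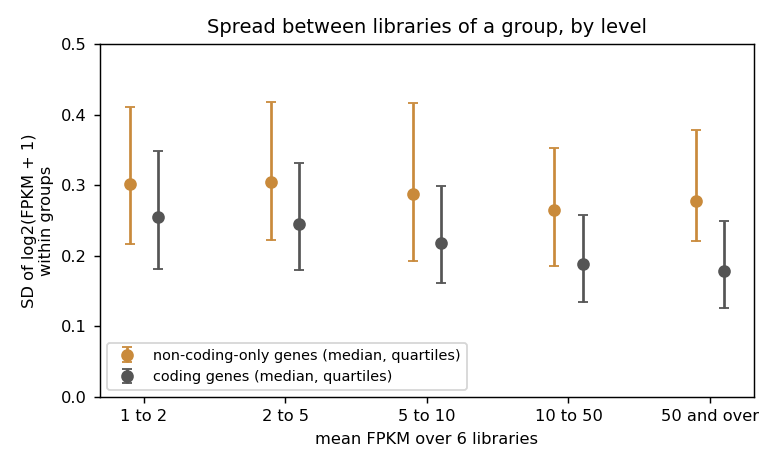
Median and quartiles of the within-group SD of log2(FPKM + 1), by class of mean FPKM. The median of the non-coding-only genes lies above that of the coding genes in all 5 classes.

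Of the 5 genes of widest spread, 4 were near 0 in some libraries and LOC112498677 was high in 1. LOC112497774, a snoRNA-typed gene, had 29.3, 18.8 and 0.191 FPKM with SA and 0.232, 28.6 and 25.4 FPKM with yeast alone. The other 3 genes of its cluster on NC_023048.1, LOC112497765, LOC112497764 and LOC112497773, were at 2.77 FPKM or more in 6 of 6 libraries. LOC112498706 had 18.2, 17.4 and 18.9 FPKM with SA and 0.223, 15.0 and 18.7 FPKM with yeast alone. Its cluster neighbour LOC112498707 had 0.203, 13.4 and 11.6 FPKM with SA and 8.66, 11.1 and 0.245 FPKM with yeast alone. The low libraries differed between these neighbours, and low libraries occurred in both groups. The untyped LOC112498571 had 8.74 FPKM in the second SA library and 10.2 FPKM in the first yeast library and was listed at 0 in the other 4. LOC112498677 had 29.4 FPKM in the second yeast library and 1.65 to 6.04 FPKM elsewhere. The coding gene on its opposite strand, LOC102609769, followed it, with 22.4 FPKM in that library and 1.62 to 4.43 FPKM in the others.

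With SA, 0 non-coding-only genes passed the threshold of an adjusted p of 0.05. The test was limma's moderated test on log2(FPKM + 1), two-sided, with Benjamini-Hochberg adjustment over 17355 genes, of which 1176 were non-coding-only. Across all genes 1 was called (0.00576%), and it was neither a non-coding-only nor a coding gene. The smallest adjusted p of the set by limma was 0.754. At an unadjusted p under 0.05 there were 74 non-coding-only genes (6.29%), 40 higher and 34 lower with SA, against 5.23% of all genes (3.05% higher and 2.18% lower). That split, 54.1% higher, became 45.9% after scaling by median of ratios and 43.8% after quantile normalization, where the split over all genes, 58.3% higher, became 48.0% and 50%. Leaving out 1 library moved it between 41.9% (44 higher and 61 lower, without the first SA library) and 69.4% (43 and 19, without the first yeast library). Without the third SA library there were 39 higher and 18 lower. The median log2 difference was 0.00432 in the set and 0.0203 over all genes. For 82.7% of the set the 95% interval of the difference lay within 1 log2 unit of 0, against 93.2% of coding genes. In bulk tissue, fewer cells of a type and less RNA per cell cannot be told apart.

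The groups did not overlap in 110 of the 1176 genes (9.35%), 56 higher and 54 lower, against 10.2% of all genes (5.68% higher and 4.56% lower). The lncRNA-typed genes gave 25 of 434 at an unadjusted p under 0.05 (5.76%), 11 higher and 14 lower. That is near the 5.23% of all genes (3.05% higher and 2.18% lower).

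**Figure D4:**
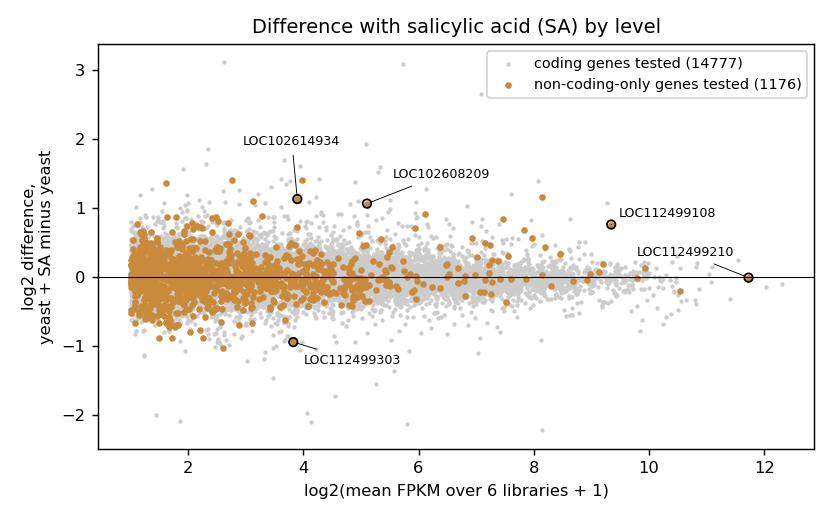
Log2 difference between yeast with SA and yeast alone against mean level, for the tested coding (grey) and non-coding-only genes (brown). The labelled genes are LOC102614934 at 1.13, LOC102608209 at 1.06, LOC112499108 at 0.76, LOC112499303 at -0.94 and LOC112499210, the highest in level, near 0.

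The non-coding-only genes with the smallest p in each direction, 8 higher and 8 lower, had adjusted p by limma between 0.754 and 0.889, and none passed. In all 16 the groups did not overlap, against 10.2% of all genes tested. Choosing genes by small p in these same libraries favours separated groups, so this adds no support. LOC102614934, typed protein coding in the newer table, had 28.0, 16.6 and 14.4 FPKM with SA and 8.47, 7.86 and 7.99 FPKM with yeast alone, a log2 difference of 1.13 (SE 0.23, 95% interval 0.61 to 1.64). The first SA library stood furthest from the yeast libraries. It is a 2-exon gene on NC_023050.1 (28518690 to 28519778, minus strand). The nearest coding gene, LOC102615506, 13224 bases away, had 51.4, 39.2 and 39.3 FPKM with SA and 32.6, 16.5 and 21.1 FPKM with yeast alone, also without overlap. LOC112499108, the rRNA model described above, had a log2 difference of 0.76 (SE 0.16, interval 0.40 to 1.12). With annotated transcripts only it was 2.76 (limma adjusted p = 0.942), a value that rests on the first yeast library at 2.45 FPKM. LOC102608209, an untyped 2-exon gene on NC_023048.1 with no coding gene within 2 kb, had 53.6, 40.7 and 40.9 FPKM with SA and 14.3, 29.7 and 21.3 FPKM with yeast alone. Its log2 difference was 1.06 (SE 0.24, interval 0.51 to 1.61).

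The untyped single-exon gene LOC102608286 had 93.4, 123 and 55.6 FPKM with SA and 42.4, 42.4 and 51.8 FPKM with yeast alone, a log2 difference of 0.91 (SE 0.26). The third SA library lay close to the yeast libraries. The single-exon model itself, on the plus strand, had 46.8, 73.7 and 34.3 FPKM with SA and 27.0, 26.8 and 29.3 FPKM with yeast alone, and the rest was in 2-exon assembled transcripts on the minus strand. LOC102614548 (38.3, 34.0 and 38.4 against 21.7, 21.1 and 27.9 FPKM), LOC102616394, a transcribed pseudogene by type, and the snoRNA-typed LOC112499098 had log2 differences of 0.63, 0.72 and 0.78. For LOC102614548 it was 0.23 with annotated transcripts only, which held 15.0% of its FPKM and whose groups overlapped. LOC112499098 had 8.09, 7.87 and 5.54 FPKM with SA and 3.39, 3.33 and 4.50 FPKM with yeast alone. Its cluster neighbour LOC112499082 had 5.80, 4.41 and 6.12 FPKM with SA and 5.56, 5.60 and 6.60 FPKM with yeast alone, so the neighbour's groups overlapped. LOC102616981, the eighth, is described with its transcripts.

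Of the 8 genes lower with SA, LOC112499303 had the largest difference, with 14.4, 6.98 and 5.91 FPKM with SA and 15.3, 19.3 and 17.2 FPKM with yeast alone (log2 difference -0.94, SE 0.28). The first SA library lay just under the lowest yeast library. It lies opposite the coding gene LOC102623869, which averaged 212 ± 16.3 FPKM with SA and 255 ± 38.3 FPKM with yeast alone (SD, n = 3 per group). The log2 difference of that partner was -0.26. The total listed under the snRNA-typed LOC112499450 was 1.26, 1.67 and 1.79 FPKM with SA and 3.55, 3.07 and 3.12 FPKM with yeast alone (log2 difference -0.73, SE 0.18). These are not levels of the snRNA model, whose 118-base transcript was listed at 0 in 5 libraries and at 0.644 FPKM in the third SA library. The rest belonged to MSTRG.16564.1, an assembled 595-base transcript that starts beyond the end of the model (19650382 to 19650976 on NC_023053.1, against 19649013 to 19649130). The lncRNA-typed LOC102624677, LOC102626386 and LOC102623668 had log2 differences of -0.70, -0.69 and -0.56. Of these LOC102624677, a 4-exon gene on NC_023049.1, had 5.31, 4.08 and 4.42 FPKM with SA and 8.13, 9.70 and 6.62 FPKM with yeast alone. LOC102623668 had 2.27, 2.13 and 2.86 FPKM with SA and 3.83, 4.18 and 4.08 FPKM with yeast alone. For LOC102630263, LOC102622431 and LOC112498269 they were -0.69, -0.77 and -0.63. Annotated transcripts held 28.1% of the FPKM of LOC102622431, and there its groups overlapped, as they did in LOC102626386.

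At the level of single transcripts, 2 of 1628 tested transcripts of the set passed (0.123%), against 9 of 26605 over all transcripts (0.0338%), by limma with adjustment over all of them. At an unadjusted p under 0.05 there were 68 (4.18%), against 5.18% of all transcripts. Both calls were in genes whose total did not pass.

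The first was XR_001507761.2 of LOC102630635, a lncRNA-typed gene on NC_023048.1 (26620233 to 26623427, plus strand). It had 0.169, 0.238 and 0.275 FPKM with SA and 33.7, 41.2 and 32.5 FPKM with yeast alone, a log2 difference of -4.90 (SE 0.18, limma adjusted p = 0.00126). Its groups were far apart while the gene total was 132, 171 and 116 FPKM with SA and 162, 127 and 139 FPKM with yeast alone, and the groups overlapped. With the replicate number as a block the called transcript did not pass (limma adjusted p = 0.106), with its log2 difference unchanged. The annotated transcript XR_370219.3 had 75.8, 89.5 and 58.9 FPKM with SA and 72.3, 49.9 and 71.6 FPKM with yeast alone, and its groups overlapped. XR_370219.3 and the called transcript both have 3 exons and end at 26623406. They start at 26620358 and 26620233 and are 2754 and 2884 bases long. How signal was assigned between these like models was not tested. The assembled transcript MSTRG.6501.3 had 54.7, 80.0 and 55.3 FPKM with SA and 54.2, 34.3 and 33.2 FPKM with yeast alone, with the lowest SA library just above the highest yeast library.

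The second was MSTRG.9946.2, an assembled transcript of LOC102616981 on NC_023050.1, plus strand. It had 4.86, 8.23 and 5.77 FPKM with SA and was listed at 0 in all 3 yeast libraries (fitted log2 difference 2.84, SE 0.26, limma adjusted p = 0.0481). The annotated transcript XR_370715.3 went the other way, with 0.0431, 0.165 and 0.0676 FPKM with SA and 3.17, 3.45 and 2.76 FPKM with yeast alone (log2 difference -1.92, limma adjusted p = 0.126, not passed). The gene total was higher with SA, a log2 difference of 0.81, but with annotated transcripts only it was -1.92. The annotated model of LOC102616981 lies within the span of the coding gene LOC107174248 on the same strand (annotated from 22539941 to 22726324). LOC107174248 had 21.5, 18.1 and 13.7 FPKM with SA and 16.6, 15.4 and 20.5 FPKM with yeast alone, and its groups overlapped. Its annotated transcript averaged 0.505 FPKM with SA and 0.376 FPKM with yeast alone, and most of its total was in MSTRG.9949.2 (22724648 to 22726567). MSTRG.9946.2 starts 42459 bases upstream of the annotated LOC102616981 model. This start lies within the span of the coding gene LOC102617488 (22519372 to 22521876), so the assignment to LOC102616981 rests on the assembly. Another assembled transcript, MSTRG.9946.3, is listed under LOC102617488 and also runs on to the end of LOC102616981, at 22564197. It had 17.6, 12.1 and 12.3 FPKM with SA and 21.6, 27.9 and 23.2 FPKM with yeast alone, the direction opposite to MSTRG.9946.2, without overlap. The call of MSTRG.9946.2 was lost when any 1 library was left out (limma adjusted p 0.0588 to 0.209), with a pseudocount of 0.1 (0.0955) and with no filter on level (0.197). With the replicate number as a block it was lost too (limma adjusted p = 0.535).

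**Figure D5:**
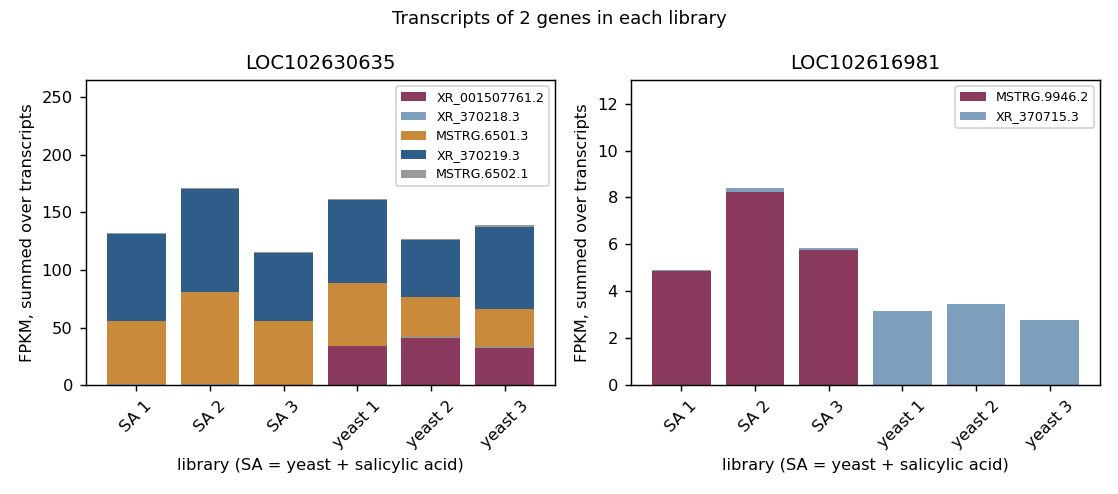
FPKM stacked by transcript in each of the 6 libraries for LOC102630635 and LOC102616981, the 2 genes with a called transcript. XR_001507761.2 lies at 0.169 to 0.275 FPKM with SA and at 32.5 to 41.2 FPKM with yeast alone, and MSTRG.9946.2 is listed at 0 in the yeast libraries.

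The other transcripts of the set that differed most did not pass. XR_369903.3 of LOC102610964 had 2.57, 3.03 and 3.01 FPKM with SA and was listed at 0 with yeast alone (limma adjusted p = 0.125). The 6 models of that gene share start and end and differ in length by a few bases, 2818 to 2837, and in the yeast libraries the signal was listed under XR_369902.3 or XR_003064678.1. MSTRG.808.3 of LOC112498343 had 0.881, 0.387 and 0.00266 FPKM with SA and 6.32, 6.08 and 5.17 FPKM with yeast alone (limma adjusted p = 0.155). The transcript with the highest FPKM was the same in all 6 libraries in 288 of 635 genes with more than 1 transcript (45.4%), against 56.7% of coding genes. It was 1 transcript in all SA libraries and another in all yeast libraries in 4 genes (0.630%), against 0.555% of coding genes.

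Summed over the set, the groups overlapped. The non-coding-only genes held 3.84%, 3.48% and 3.603% of all FPKM with SA (mean 3.64 ± 0.182, SD, n = 3) and 3.73%, 3.08% and 3.49% with yeast alone (3.43 ± 0.328). The exact two-sided permutation test gave p = 0.5, where 0.1 is the smallest that 3 against 3 libraries allow. Genes at 1 FPKM or more numbered 1163 ± 29.8 per library with SA and 1138 ± 18.0 with yeast alone (exact permutation p = 0.3).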

How the data were processed

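The authors deposited, per the file headers, for each library the FPKM and the coverage signal, a mean over bases, of 59106 annotated and assembled transcripts. The aligner, assembler, build and library strandedness were not given in the sources used here. Gene values are sums of the deposited FPKM over transcripts of a gene name, and depth was computed from the coverage. Whether libraries come from separate fruit is not given, so the p-values reflect spread among these libraries only, and that spread may be technical.

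Genes and transcripts with a mean FPKM of at least 1 entered limma 3.58.1 as log2(FPKM + 1) (mean-variance trend; R 4.3.3, data.table, version 1.17.8), with Benjamini-Hochberg adjustment over all of them and a threshold of 0.05. Differences on this scale understate the change of low genes. The procedure was tested on simulated data. Values per library were compared by exact permutation. Python 3.11.15, pandas 2.3.3, numpy 2.4.6 and matplotlib 3.10.9 were used. Gene types came from a RefSeq gene list of assembly DVS_A1.0, which may differ from the authors' build, so none of its coordinates were used.

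Named genes were those with a called gene or transcript, the 8 smallest p in each direction, the 10 highest, the 5 of widest spread, the 3 with most exons and the 3 longest, with overlapping coding genes. Genes given as examples of rRNA, snoRNA and transcript exchange were chosen after their values were seen. The genes and lists were chosen with earlier results of these data known. The alternatives were another pseudocount, no filter and a stricter one, median-of-ratios and quantile scaling, annotated transcripts only, a replicate block and leaving out each library. Restrictions of the set to genes over 200 bases, to lncRNA-typed genes or to genes without rRNA type were added after seeing the data.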

Additional observations from a re-analysis of the deposited data

How the results depend on the processing

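No gene of the set passed in any alternative (limma). Genes at an unadjusted p under 0.05 ranged from 55 of 1160 (without yeast with SA replicate 2) to 138 of 2388 (no filter). Over all genes these settings gave 551 of 17263 and 1323 of 25861. Without yeast with SA replicate 1 it was 105 of 1175, against 1285 of 17348. The smallest limma adjusted p was 0.0513 with annotated transcripts only (LOC102616981) and 0.0949 without yeast with SA replicate 2. For the share of FPKM and the number of genes at 1 FPKM or more, 3 against 3 libraries cannot reach the threshold, and exact permutation p ranged from 0.3 to 1 and from 0.1 to 0.9. Over all genes 1 was called, 2 with a pseudocount of 0.1, 0 with annotated transcripts only (806 at an unadjusted p under 0.05) and 1 to 5 with single libraries left out, 5 without yeast replicate 2 and 3 without yeast with SA replicate 3. Transcripts of the set past the threshold fell from 2 to 1 with a pseudocount of 0.1, without a filter, with a minimum mean of 5 FPKM, where MSTRG.9946.2 was no longer tested, and with any library left out (1 to 1). The median level against coding genes was -1.87 to -1.84 with single libraries left out, where 5 libraries cannot give a p below 0.0625, and -3.91 with a pseudocount of 0.1.

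Whether equal replicate numbers pair the libraries is not given. Deviations of same-numbered libraries correlated at 0.114, 0.188 and -0.00939, and those of different-numbered libraries at -0.248 to 0.140. These ranges overlap, so the values do not settle the pairing. With the replicate number as a block, 2 genes were called over all genes and 0 transcripts of the set. At an unadjusted p under 0.05 there were 70 of 1628 transcripts of the set, against 1475 of 26605 over all transcripts. Adjusted p was then 0.106 for XR_001507761.2 and 0.535 for MSTRG.9946.2, with the differences still at -4.90 and 2.84.

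Of 431 alternatives for 34 named genes, 397 kept the direction and the side of the threshold and 34 reversed the direction. LOC102616981 gave -1.92 with annotated transcripts only, and LOC112499210 and LOC102616797 gave 0.0556 and 0.0528 with quantile normalization. With single libraries left out, log2 differences ranged from -0.19 to 0.0841 for LOC102630635, -0.22 to 0.10 for LOC112499210, -0.11 to 0.52 for LOC112499109, -0.20 to 0.14 for LOC102616797, -0.0027 to 0.37 for LOC102623366, -0.0218 to 0.17 for LOC102608167, -0.16 to 0.23 for LOC102606958, -0.23 to 0.11 for LOC107178032, -0.18 to 0.0385 for LOC102609478, -1.65 to 1.31 for LOC112497774, -1.16 to 1.09 for LOC112498571, -0.84 to 1.36 for LOC112498707, -1.36 to 0.40 for LOC112498677, -0.0170 to 0.55 for LOC102609848 and -0.0892 to 0.23 for LOC102608860. The cause was not tested. FPKM without counts gives no counting error, so how far depth limits the tested genes, short ones among them, cannot be told. Genes with a mean under 1 FPKM were not tested in the main fit.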

Other observations

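Genes that were on in some libraries and off in at least 1 other were more frequent in the set than among coding genes. At 5 FPKM or more in at least 1 library and under 0.5 FPKM in another were 11 of the 608 non-coding-only genes that reached 5 FPKM (1.81%), 6 of them with no transcript over 200 bases. The share was 0.297% of the 11773 coding genes that reached that level. This is a count with no test, and the genes were not matched for level. A mean of at least 10 FPKM was reached by 34.2% of all coding genes and 7.84% of the set.

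LOC102619854, a lncRNA-typed gene of 2 exons on NC_023048.1 (770615 to 771155, minus strand), was chosen after its values were seen. It had 476, 213 and 487 FPKM with SA and 108, 188 and 217 FPKM with yeast alone, so the second SA library lay within the range of the yeast libraries. The log2 difference was 1.16 (95% interval 0.35 to 1.96) and it did not pass (limma adjusted p = 0.880, 0.571 to 0.9998 over 13 alternatives, direction kept in all).

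Of the 4 genes whose highest transcript differed between the groups, LOC102627304 on NC_023053.1 had an annotated transcript, XR_371597.3, at 4.18, 7.84 and 8.06 FPKM with SA and 13.1, 10.2 and 18.0 FPKM with yeast alone. Its assembled transcript MSTRG.16017.1 had 10.4, 12.3 and 12.8 FPKM with SA and 5.66, 7.08 and 8.24 FPKM with yeast alone. The groups did not overlap in either transcript, and the assembled one ends 20003 bases downstream of the annotated one. The gene was chosen because its highest transcript differs, so these values are a description.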
